A study of Mus musculus with 17 samples.

Results

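The genes of mitosis and of the mitotic spindle were followed here as one group across 17 thymus samples, each a separate mouse on an expression array. The group held 47 listed genes, of which the array annotation paired 46 with a probe set of their own, out of 18194 genes measured in this way. Ccnb1 was not analysed here. Each gene was read from a single probe set, the one with the highest mean over all the arrays, and all 46 genes lay above the filter on low values that left 13756 genes for testing. By role, 7 measured genes drive entry into mitosis, 7 encode Aurora kinases, the passenger complex or Nek2, 8 act in the spindle checkpoint and anaphase, 5 at the centromere and kinetochore, 11 as spindle motors or microtubule proteins, 6 in cytokinesis, and 2 on mitotic chromosomes.

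The mice were all C57Bl/6 and all carried the ΔVII allele of Tcf1, a germ-line mutation of the T-cell transcription factor Tcf1 that is present in every cell of the animal. The controls were 5 mice with 1 wild-type and 1 ΔVII copy (Tcf1+/-). They were compared with 4 ΔVII/ΔVII mice whose thymus is labelled without a tumor (Tcf1-/-), and with 8 ΔVII/ΔVII mice labelled with a thymic tumor (lymphoma). RNA is labelled as from homogenized thymus, and the study's methods name homogenized thymocytes, so the share of stroma in the input is not settled. In either case fewer cells of a type and less RNA per cell cannot be told apart. Ages, sexes and tumor stages are not given in the labels, no wild-type mouse without the ΔVII allele was analysed here, and the probe for the targeted gene itself was not analysed here. Values are log2 signals, on which a difference of 1 is a doubling.

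Mitosis begins when Cdk1 bound to a cyclin B is switched on by Cdc25 phosphatases, with Plk1 and the Aurora kinases building the spindle. Kinetochores assembled on Cenpa chromatin capture microtubules, and the Bub1, Bub1b, Mad2l1 and Ttk checkpoint holds back Cdc20 and the anaphase-promoting complex until all chromosomes are attached. Securin (Pttg1) is then destroyed, separase (Espl1) cuts cohesin, and Prc1, Kif20a, Kif23, Anln, Ect2 and Racgap1 divide the cell. Transcripts of these genes peak in G2 and M phase, so their level in a tissue tends to follow the share of cells in division. In the thymus most division takes place in immature thymocytes before and after rearrangement of the T-cell receptor β chain.

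The promoters of these genes carry a known pair of elements: the cell cycle homology region (CHR), bound by the MuvB core of the DREAM and MYBL2-FOXM1 complexes, and the CCAAT box, bound by NF-Y. RefSeq promoter windows (GRCm38.p6, 250 bases before to 50 after the start) were matched to 40 of the 47 genes, giving 43 windows. Ccna2, Cdc25c, Foxm1, Tpx2, Aurkb, Incenp and Kif20a were not matched. The CHR was searched as TTTGAA or TTTAAA and the CCAAT box as CCAAT, both on either strand. A CHR match was found in 34 of 43 windows (79.1%), against 27.6% of 32851 mouse promoters, and a CCAAT match in 33 (76.7%), against 37.4%. Both were present in 29 windows (67.4%, against 10.7%). Genes of DNA replication, which are expressed in S phase, gave 25.7% for the CHR and 54.3% for CCAAT over 35 windows. A match is a description of the letters and not proof of a bound site.

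The windows below belong to the 8 matched genes that passed the test in at least 1 comparison of the groups, with capitals marking the CHR and CCAAT matches. Kif2c and Ndc80 held 2 CHR matches each and no CCAAT, Cenpa 2 of each, Cdc20 1 CHR and 2 CCAAT, Cdca8 1 CHR and 4 CCAAT, and Espl1 1 of each. In Cdca8 the CHR overlaps a CCAAT match, so they form 1 run of capitals. Psrc1 held 2 CCAAT and no CHR, and Pttg1 neither. All regions are in GRCm38.p6, written 5′ to 3′ along the gene.
Psrc1 (chr3:108383554-108383853, plus strand): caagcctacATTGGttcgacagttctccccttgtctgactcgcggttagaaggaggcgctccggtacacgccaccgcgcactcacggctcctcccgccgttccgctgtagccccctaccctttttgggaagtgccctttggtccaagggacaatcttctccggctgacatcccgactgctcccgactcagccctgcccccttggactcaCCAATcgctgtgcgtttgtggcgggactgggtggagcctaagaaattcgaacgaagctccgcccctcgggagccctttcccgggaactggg
Kif2c (chr4:117178723-117179022, minus strand): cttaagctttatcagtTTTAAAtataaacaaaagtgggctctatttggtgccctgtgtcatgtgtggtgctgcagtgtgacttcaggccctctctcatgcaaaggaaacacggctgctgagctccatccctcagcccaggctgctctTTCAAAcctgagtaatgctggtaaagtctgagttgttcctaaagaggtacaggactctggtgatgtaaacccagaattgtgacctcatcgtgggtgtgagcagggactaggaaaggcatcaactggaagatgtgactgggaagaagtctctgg
Cdc20 (chr4:118437294-118437593, minus strand): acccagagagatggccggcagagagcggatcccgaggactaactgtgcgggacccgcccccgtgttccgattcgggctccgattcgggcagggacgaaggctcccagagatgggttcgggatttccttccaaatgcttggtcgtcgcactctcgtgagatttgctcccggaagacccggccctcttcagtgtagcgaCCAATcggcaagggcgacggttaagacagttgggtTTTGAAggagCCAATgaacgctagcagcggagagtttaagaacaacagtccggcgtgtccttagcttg
Cdca8 (chr4:124936868-124937167, minus strand): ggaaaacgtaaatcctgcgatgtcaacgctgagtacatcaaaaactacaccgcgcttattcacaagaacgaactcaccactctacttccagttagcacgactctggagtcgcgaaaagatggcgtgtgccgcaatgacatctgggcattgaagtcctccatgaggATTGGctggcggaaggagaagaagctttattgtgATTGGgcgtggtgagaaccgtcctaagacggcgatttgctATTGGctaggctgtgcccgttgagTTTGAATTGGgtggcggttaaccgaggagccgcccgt
Ndc80 (chr17:71526808-71527107, minus strand): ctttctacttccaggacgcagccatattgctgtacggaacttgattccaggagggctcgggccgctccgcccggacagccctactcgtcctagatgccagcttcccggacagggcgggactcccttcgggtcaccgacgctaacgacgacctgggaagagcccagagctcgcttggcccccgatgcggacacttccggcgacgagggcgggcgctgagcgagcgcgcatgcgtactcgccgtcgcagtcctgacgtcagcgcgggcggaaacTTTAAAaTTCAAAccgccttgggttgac
Cenpa (chr5:30666636-30666935, plus strand): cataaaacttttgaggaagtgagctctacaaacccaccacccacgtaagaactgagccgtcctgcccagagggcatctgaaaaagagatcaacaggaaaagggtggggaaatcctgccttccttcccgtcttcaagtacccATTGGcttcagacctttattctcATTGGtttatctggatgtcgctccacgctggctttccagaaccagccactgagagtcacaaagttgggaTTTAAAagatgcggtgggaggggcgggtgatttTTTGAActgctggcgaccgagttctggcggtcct
Espl1 (chr15:102296043-102296342, plus strand): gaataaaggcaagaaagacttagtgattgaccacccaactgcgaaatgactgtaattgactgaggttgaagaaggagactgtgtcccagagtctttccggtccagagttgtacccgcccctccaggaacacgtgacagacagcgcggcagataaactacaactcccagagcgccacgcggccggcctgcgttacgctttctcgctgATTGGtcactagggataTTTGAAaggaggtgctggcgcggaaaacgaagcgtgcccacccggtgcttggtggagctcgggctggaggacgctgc
Pttg1 (chr11:43425932-43426231, minus strand): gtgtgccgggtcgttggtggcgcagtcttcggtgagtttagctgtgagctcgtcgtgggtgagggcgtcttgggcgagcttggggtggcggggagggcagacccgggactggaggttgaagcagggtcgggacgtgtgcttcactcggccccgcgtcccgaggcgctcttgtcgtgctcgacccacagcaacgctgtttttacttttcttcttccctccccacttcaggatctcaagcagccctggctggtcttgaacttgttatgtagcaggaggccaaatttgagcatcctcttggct

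Where the CHR was present it lay close to the start of the gene. In 30 of the 34 windows with a match, the one nearest the start fell within 50 bases of it on either side. Among all promoters this held for 2770 of the 9062 with a match. Counted over windows with and without a match, the shares were 69.8% and 8.43%, which also reflect how often a match was present. Kif18a, Mad2l1, Nuf2, Nusap1 and Pttg1 held neither set of letters (11.6% of windows, against 45.7% of all promoters). The core letters of a TCF/LEF site (CTTTG followed by 2 letters that are each A or T, either strand), the type of site that Tcf1 binds, were in 6 windows (14.0%), against 16.9% of all promoters. These were Aurka, Bub1b, Ccnb2, Cdk1, Kif15 and Ube2c. In 3 of the 6 the match contains a CHR match, since TTTGAA can lie inside it.

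**Figure D1:**
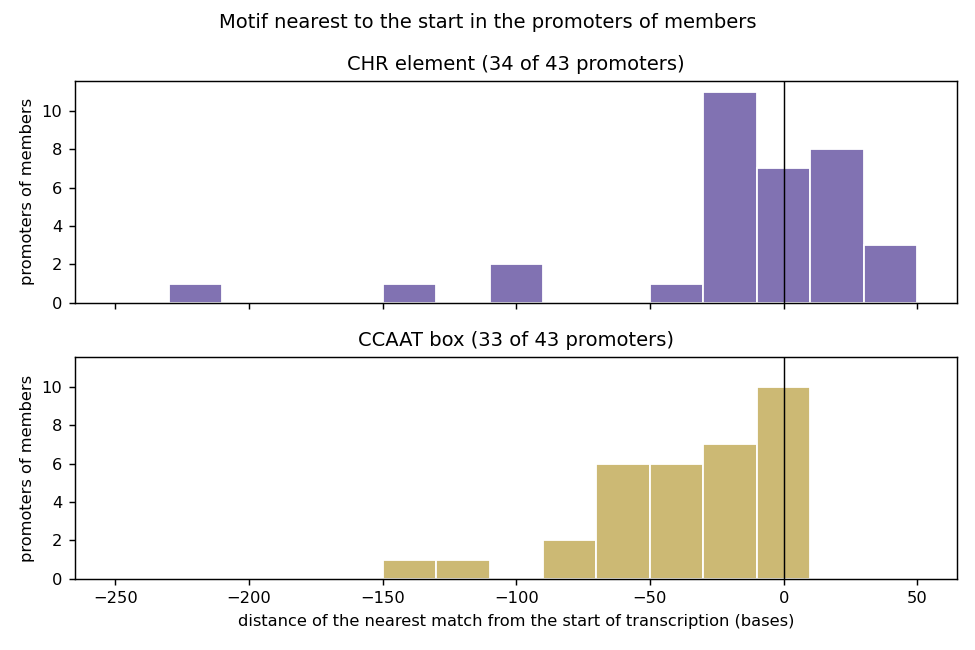
Distance from the annotated start, in bases, of the match nearest to it in each promoter window that held one, for the CHR (34 of 43 windows) and for CCAAT (33 of 43 windows). Most CHR matches nearest the start sit within 50 bases of it (30 of the 34 windows with a match).

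In their overall signal 4 arrays stood apart. These came from 2 Tcf1+/- mice (replicates 1 and 2) and 2 lymphomas (also replicates 1 and 2), and had interquartile ranges of 2.93 to 3.06 log2 units, against 3.49 to 3.75 in the other 13, and a larger excess of 3′ over 5′ Gapdh signal (1.12 to 2.63, against -0.13 to 0.96). No Tcf1-/- array was among the 4. Mitotic genes read lower on them: replicates 1 and 2 of Tcf1+/- lay below the other 3 in 32 of 46 genes (69.6%, against 43.9% of all genes), with a median difference of -0.54 (all genes -0.14). Lymphoma replicates 1 and 2 lay below the other 6 in 22 of 46 genes (47.8%, against 23.8%), with a median difference of -0.44 (all genes -0.02). Y-linked signal was present in 4 of 5 Tcf1+/-, 4 of 4 Tcf1-/- and 2 of 8 lymphoma arrays. The part of either in the results below was not tested, and counts of the members with and without these arrays are given for each comparison.

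Over all 46 genes, the mean per mouse was 9.70, 9.59, 10.24, 10.19 and 10.21 in Tcf1+/-, with a mean of 9.98 ± 0.32 (SD, n = 5). The Tcf1-/- mice gave 7.82, 9.73, 9.73 and 9.88, a mean of 9.29 ± 0.98 (SD, n = 4). The 8 lymphomas ran from 9.47 through a median of 9.99 to 10.47 (9.93 ± 0.33, SD, n = 8). The lowest Tcf1-/- mouse stood far below the next, and the remaining 3 lay inside the ranges of both other groups. Without that mouse Tcf1-/- averaged 9.78 ± 0.09, below each of the 3 Tcf1+/- arrays of the other set (10.19 to 10.24).

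**Figure D2:**
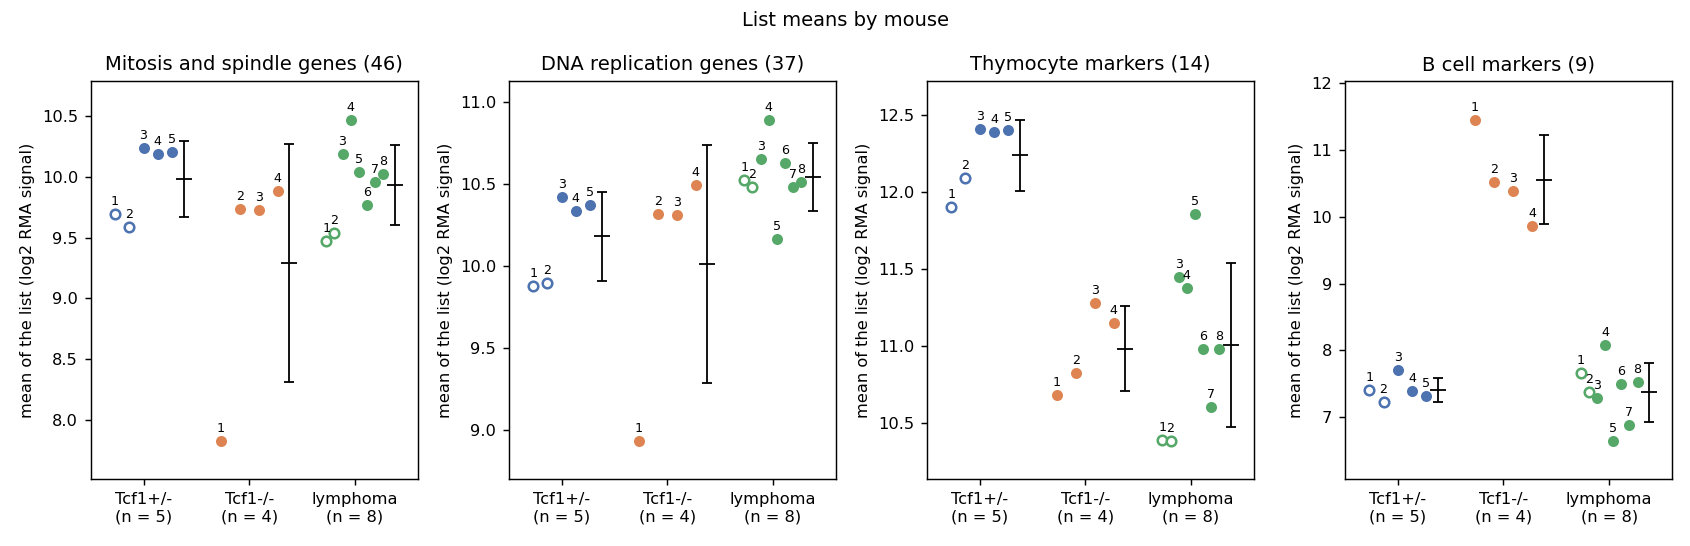
Mean log2 signal per mouse of 46 mitosis and spindle genes, 37 DNA replication genes, 14 thymocyte markers and 9 B cell markers in Tcf1+/- (n = 5), Tcf1-/- (n = 4) and lymphoma (n = 8). Each circle is 1 mouse, open circles are the 4 arrays that stand apart, and bars give the mean ± SD. Tcf1-/- replicate 1 (7.82) lies below all other mice for the mitotic genes.

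The thymus without Tcf1 was compared with the Tcf1+/- thymus first, to see how division genes stand before a tumor is present. Ndc80, the kinetochore subunit that grips the microtubule, was the only mitotic gene that passed the test. Its log2 signal was 8.17, 8.34, 9.24, 8.78 and 8.89 in Tcf1+/-, and 6.58, 7.75, 7.76 and 8.10 in Tcf1-/-. Every Tcf1-/- mouse was below every Tcf1+/- mouse, and the difference was -1.14 (SE 0.32, 2.20-fold lower, limma adjusted p = 0.039). All other members also had a mean below that of Tcf1+/-, with a median over the 46 of -0.63 (all genes -0.01), but 45 did not pass. Without Tcf1-/- replicate 1, 34 of the 46 were below 0, with a median of -0.22 (all genes 0.01). Over all arrays no member rose, also without adjustment. At an unadjusted p under 0.05, 13 were lower by limma (9.85% of all genes were) and 14 by the exact Mann-Whitney test (8.37% of all genes were). In either direction, 3560 of the 13756 genes passed that unadjusted threshold by limma. Of all genes tested, 10.1% rose and 4.7% fell in this comparison, so 1 of 46 is not above the background. Of the genes called, 68.2% were higher, a share of 55.8% when the arrays were scaled to one median and interquartile range, which moved the median of all genes to -0.15.

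The groups did not overlap in 11 members, all lower in Tcf1-/-: Kif2c, Ndc80, Cdc20, Prc1, Cdca3, Aurka, Cdca8, Hmmr, Cdc25c, Plk1 and Bub1b. Among all genes, 6.11% had every Tcf1-/- mouse below every Tcf1+/- mouse. Cdc20, the activator of the anaphase-promoting complex, measured 12.36, 12.09, 12.25, 12.35 and 12.26 in Tcf1+/-, against 9.52, 11.71, 11.65 and 11.67 in Tcf1-/-. The step down from Tcf1+/- is small for 3 of the Tcf1-/- mice and far larger for the remaining one. Kif2c, a kinesin that takes microtubules apart at kinetochores, had the same shape, at 9.22 to 9.47 in Tcf1+/- and 6.66, 8.62, 8.69 and 8.66 in Tcf1-/-.

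That one mouse was Tcf1-/- replicate 1. It was the lowest of all 17 arrays in 41 of 46 members (89.1%), against 14.4% of all genes tested, and its median difference from the other 3 Tcf1-/- mice was -2.07 (all genes -0.04). Kif20a, a kinesin of the cleavage furrow, was furthest down (-2.78), and Kif15, whose probe set was dim on every array (5.14 to 6.97), hardly differed (-0.03). Its mean over the DNA replication genes was also low, 8.93 against 10.31 to 10.50 in the other 3. On the same array the markers of other blood cells were high: 11.45 for B cells (9.86 to 10.53 in the other Tcf1-/- mice), 11.27 for macrophages (9.21 to 10.43), 9.23 for NK cells (7.71 to 8.50) and 8.57 for dendritic cells (7.05 to 8.05). Its thymocyte markers were 10.69, against 10.82 to 11.28. The part of this makeup in the low mitotic signal was not tested.

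Cell type markers also moved between the groups as a whole. In Tcf1-/- against Tcf1+/-, 10 of 14 thymocyte markers fell, while 12 of 12 macrophage, 7 of 9 B cell, 4 of 5 NK cell, 6 of 8 dendritic cell and 4 of 9 fibroblast markers rose by limma. Mean thymocyte marker signal was 11.91 to 12.41 in Tcf1+/- and 10.69 to 11.28 in Tcf1-/-, and mean B cell marker signal was 7.23 to 7.70 and 9.86 to 11.45. No group was without thymocyte markers, lymphomas included (10.39 to 11.86). Thymic epithelial markers gave 1 higher and 1 lower of 12, and 0 of 2 erythroid markers passed (0 also at an unadjusted p under 0.05). Without Tcf1-/- replicate 1 and the 4 arrays that stand apart the thymocyte count was 11 of 14 lower, and 11 of 12 macrophage, 7 of 9 B cell, 4 of 5 NK cell, 5 of 8 dendritic cell, 6 of 9 fibroblast and 3 of 12 epithelial markers were higher. The part of these shifts in the values of the mitotic genes was not tested.

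With Tcf1-/- replicate 1 and the 4 arrays that stand apart left out, a choice made after the data were seen, 3 Tcf1-/- mice stood against 3 Tcf1+/- mice. In that fit 22 of 46 members fell (47.8%), against 15.2% of all genes, and the median was -0.43 (all genes 0.02). The arrays left out were ones on which the members read low. Leaving out replicate 1 narrowed the median member SD in Tcf1-/- from 1.06 to 0.18. Without its 2 arrays that stand apart, the Tcf1+/- member mean was 10.21 instead of 9.98. The excess over all genes cannot be separated from this choice of arrays. The Aurora and passenger genes had 6 of 7 lower, entry into mitosis 4 of 7, cytokinesis 3 of 6, spindle motors 5 of 11, centromere and kinetochore 2 of 5, checkpoint and anaphase 2 of 8, and mitotic chromosomes 0 of 2. Ndc80 (-1.10, adjusted p = 0.003 by limma), Prc1 (-0.84, 0.005), Cenpa (-0.79, 0.002), Kif2c (-0.62, 0.004) and Cdc20 (-0.61, 0.005) were among those that fell. Prc1 bundles microtubules of the midzone, and Cenpa is the histone H3 variant of centromeres. Mki67, the proliferation antigen that coats mitotic chromosomes, differed by -0.06 (0.88), and Foxm1, a transcription factor of mitotic genes, by 0.24 (0.41). Plk1, Aurkb and Birc5 were also among the 22 that fell, while Cdk1, Top2a and Bub1 did not pass.

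The count therefore turned on which arrays were used. Without Tcf1-/- replicate 1 alone, 3 members fell (Cdc20, Kif2c and Prc1), against 4.19% of all genes, and Ndc80 did not pass. It also lost its call without Tcf1-/- replicate 2 or 3 or Tcf1+/- replicate 3, 4 or 5. Without the 4 arrays that stand apart alone, 2 fell (4.35%), fewer than the 11.8% of all genes that did. With the set of arrays as a block in the fit, Cenpa, Kif18a, Ndc80 and Prc1 fell, 4 of 46, against 13.2% of all genes. In each of these fits no member rose, also at an unadjusted p under 0.05 by limma.

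**Figure D3:**
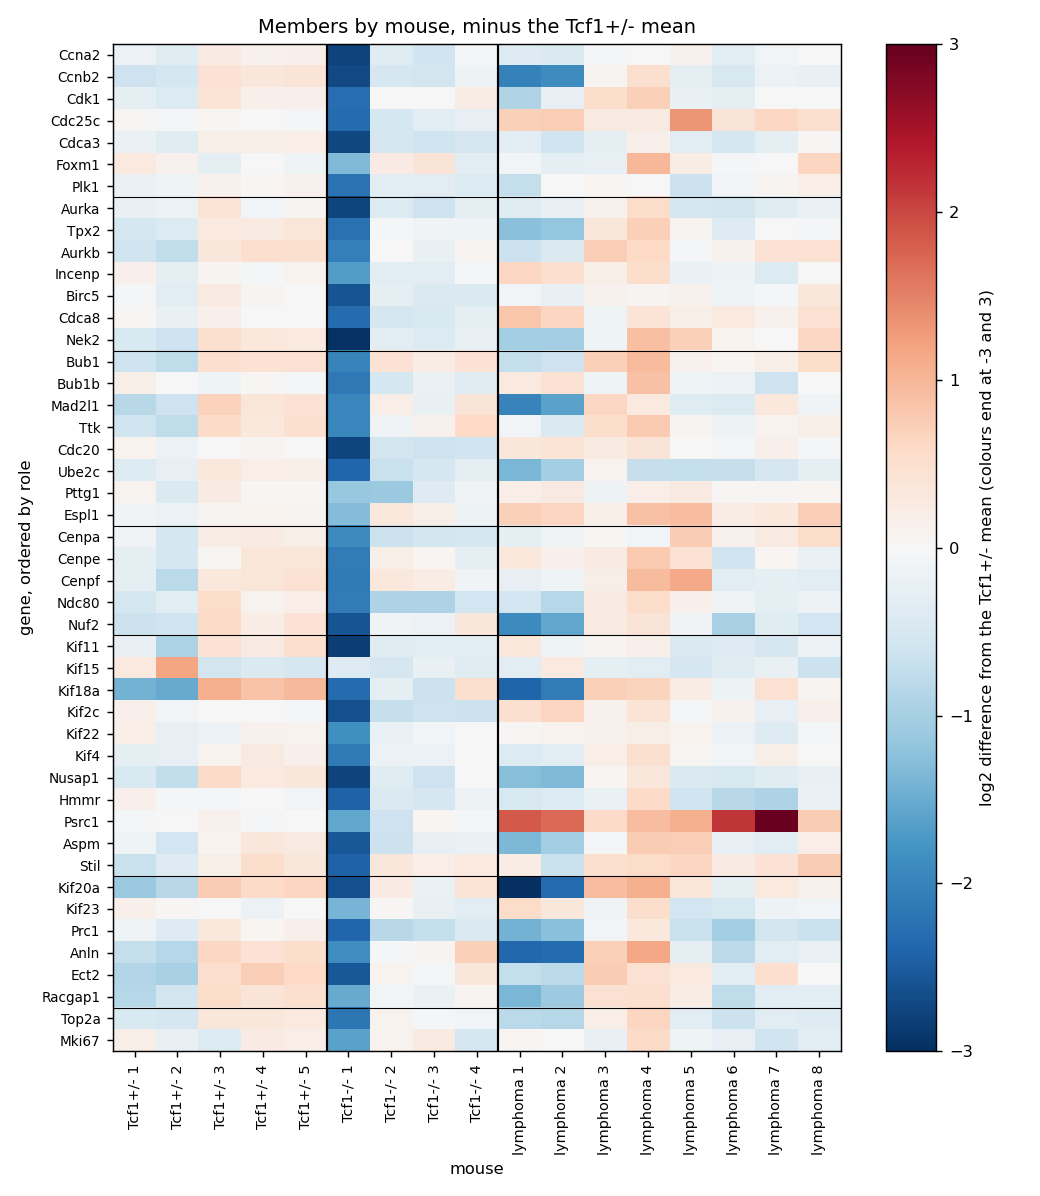
Log2 signal of the 46 genes (rows, ordered by role) in the 17 mice (columns), each minus the Tcf1+/- mean of that gene, with colours ending at -3 and 3. Tcf1-/- replicate 1 is the column that is low almost throughout (41 of 46 genes lowest of all arrays), and lymphoma replicates 1 and 2 are low in Kif20a, Kif18a, Anln and Mad2l1.

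The lymphomas were next compared with the tumor-free Tcf1-/- thymus. By limma, 8 of 46 mitotic genes rose and none fell (17.4% of members), against 6.34% of all genes higher and 8.35% lower, and the median difference was 0.60 (all genes 0.10, or 0.21 with the interquartile-range scaling). Of all genes called, 43.2% were higher, and 54.6% with that scaling. At an unadjusted p under 0.05, 13 were higher and 0 lower by limma, and 12 and 0 by the exact Mann-Whitney test, where 16.1% and 16.8% of all genes were higher. In either direction 4061 of the 13756 genes passed unadjusted by limma, a share close to that of the members. The 13 members that passed were all higher, but members measured in the same mice are not independent of each other. Tcf1-/- replicate 1 was the lowest of all 17 arrays in 41 of 46. The genes that rose span 5 of the 7 roles: Psrc1 and Kif2c on the spindle, Cdc25c in entry, Cdca8 in the passenger complex, Cenpa and Ndc80 at the kinetochore, and Cdc20 and Pttg1 in anaphase.

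Psrc1, a protein that binds spindle microtubules, moved most. It measured 6.52, 7.45, 8.13 and 8.04 in Tcf1-/-, and the lymphomas ran from 8.63 through a median of 9.45 to 11.04. All 8 lymphomas exceeded all 4 Tcf1-/- mice, a difference of 2.03 (SE 0.44, 4.08-fold higher, limma adjusted p = 0.008). Its other 2 probe sets, both dimmer, differed by 0.90 and 0.54.

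Cdc25c, the phosphatase that activates Cdk1, read 5.24, 7.02, 7.23 and 7.30 in Tcf1-/- and 7.81, 8.10 and 8.87 (lowest, median, highest) in the lymphomas. The groups did not overlap, and the difference was 1.45 (SE 0.34, 2.74-fold, limma adjusted p = 0.013). Kif2c read 6.66, 8.62, 8.69 and 8.66 in Tcf1-/- and 9.06, 9.45 and 9.94 in the lymphomas, a difference of 1.36 (SE 0.34, 2.56-fold, limma adjusted p = 0.017). The other Kif2c probe sets disagreed with this one, at 0.46, 0.38 and -0.53, so the gene's change is uncertain. The Cdc25c, Kif2c and Cdc20 probe sets used are of the manufacturer's class whose probes may also match other transcripts. Those used for Foxm1, Incenp and Kif22 are of the same class.

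Cdc20 in the lymphomas was 12.20, 12.47 and 12.68, against 9.52 to 11.71 in Tcf1-/-. The difference was 1.30 (SE 0.35, 2.47-fold, limma adjusted p = 0.023), and its other probe sets gave 1.0 and 1.42. Cdca8, or borealin, which brings the Aurora B complex to centromeres, measured 8.81, 10.62, 10.67 and 10.85 in Tcf1-/- and 11.0015, 11.48 and 11.94 in the lymphomas, 1.23 higher (SE 0.33, 2.35-fold, limma adjusted p = 0.024). Cenpa measured 8.87, 10.12, 10.23 and 10.26 in Tcf1-/- and 10.52, 10.86 and 11.54 in the lymphomas. This was 1.07 higher (SE 0.27, 2.10-fold, limma adjusted p = 0.019). Its other probe sets, both dimmer, differed by 0.22 and 0.38. With the mean of all probe sets of a gene, Cenpa and Kif2c did not pass. For each of these genes the lowest lymphoma was above the highest Tcf1-/- mouse.

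Ndc80 and Pttg1 also rose, by 1.01 (SE 0.30, limma adjusted p = 0.040) and 0.80 (SE 0.20, 0.016), but in both the groups overlapped. Pttg1 read 11.75, 11.78, 12.51 and 12.78 in Tcf1-/- and 12.74, 13.02 and 13.17 in the lymphomas. Its other probe sets, both dimmer, differed by 0.17 and 0.73. The groups were separate, lymphomas above, in 7 members (Birc5, Cenpa, Cdca8, Cdc20, Kif2c, Cdc25c and Psrc1), against 4.41% of all genes.

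Ndc80 lost its call without Tcf1-/- replicate 1, 2 or 3 or without any one of lymphoma replicates 3 to 8, and Pttg1 without Tcf1-/- replicate 1 or 2. Some of the difference depended on Tcf1-/- replicate 1. Without it 5 members rose (Cdc20, Cdc25c, Cdca8, Kif2c and Psrc1), against 2.06% of all genes, and the mean over all members was 0.15 above Tcf1-/- instead of 0.64. Without it and the 4 arrays that stand apart, 6 rose (Cdc20, Cdc25c, Cdca8, Cenpa, Kif2c and Ndc80), against 3.8% of all genes, with a median of 0.24, and Psrc1 stood at 1.60 (limma adjusted p = 0.079). With the Y-linked signal as a covariate none passed the adjusted threshold, as 0.385% of all genes did on the higher side (lowest limma adjusted p = 0.13, with 9 members higher and 0 lower at an unadjusted p under 0.05).

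The markers of other blood cells ran the opposite way in this comparison, whereas 7 of 9 fibroblast markers were above 0 (median 0.23). By limma 11 of 12 macrophage, 8 of 9 B cell, 5 of 5 NK cell, 7 of 8 dendritic cell and 5 of 12 thymic epithelial markers fell in the lymphomas, while 2 of 14 thymocyte and 1 of 9 fibroblast markers rose. Mean B cell marker signal was 6.65 to 8.08 in the lymphomas, and mean macrophage marker signal 5.98 to 8.62. Without the arrays in doubt 9 macrophage, 7 B cell, 4 NK cell, 6 dendritic cell and 3 epithelial markers fell, and 1 thymocyte marker rose. The part of this in the higher mitotic signal was not tested.

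**Figure D4:**
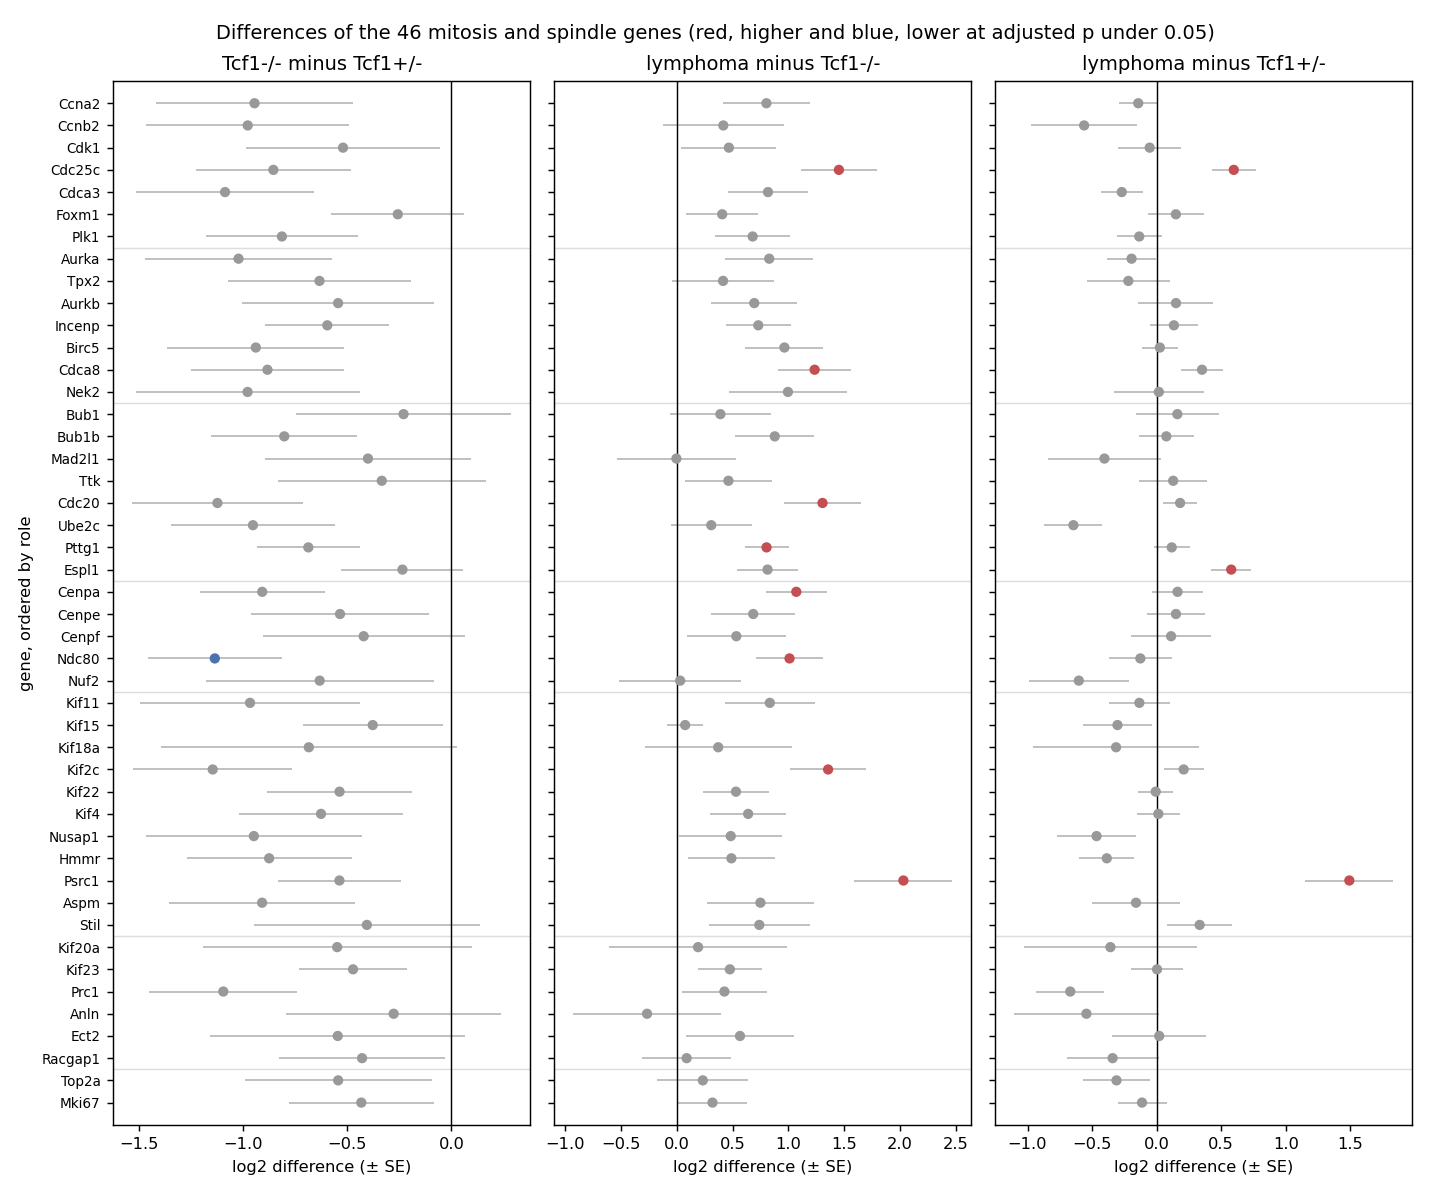
Log2 difference ± SE of the 46 genes, ordered by role, in Tcf1-/- against Tcf1+/-, lymphoma against Tcf1-/- and lymphoma against Tcf1+/-. Red marks genes that rose and blue genes that fell by limma at an adjusted p under 0.05. All 46 differences lie below 0 in the first panel, 44 lie above 0 in the second, and the third is centred near 0 (22 above and 24 below). Without Tcf1-/- replicate 1, 34 differences are below 0 in the first comparison (median -0.22). In the second, 19 are then below 0 (median 0.11).

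Against the Tcf1+/- thymus, the lymphomas showed 3 mitotic genes that rose and none that fell, against 8.49% of all genes higher and 4.21% lower. This is 6.52% of the members and not above the background. The median difference was -0.03 (all genes 0.06), with 22 members above and 24 below 0. At an unadjusted p under 0.05, 4 were higher and 2 lower by limma (16.9% and 8.72% of all genes), and 4 and 3 by the exact Mann-Whitney test (16.8% and 8.15%). Each pair of the 3 comparisons shares a group of mice, so their directions are not independent.

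Psrc1 was again the largest, with 8.01, 8.06, 8.19, 8.03 and 8.06 in Tcf1+/-. The 8 lymphomas measured 9.90, 9.76, 8.63, 8.99, 9.13, 10.22, 11.04 and 8.82. The 5 controls lie close together, every lymphoma lies above them, and the lymphomas themselves are spread widely. The difference was 1.49 (SE 0.34, 2.81-fold, limma adjusted p = 0.011), with 0.67 and 0.63 for the other probe sets.

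Cdc25c was 7.58, 7.52, 7.61, 7.55 and 7.51 in Tcf1+/-, and the lymphomas (7.81 to 8.87) were 0.60 higher (SE 0.17, 1.51-fold, limma adjusted p = 0.033). The second Cdc25c probe set differed by 0.26. Espl1, or separase, was 8.85, 8.78, 9.03, 9.05 and 9.03 in Tcf1+/-. It was 9.13, 9.62 and 9.89 in the lymphomas, 0.58 higher (SE 0.16, 1.49-fold, limma adjusted p = 0.026). In Tcf1-/- Espl1 read 7.66, 9.26, 9.13 and 8.81. These 3 were the members in which every lymphoma was above every Tcf1+/- mouse, against 4.78% of all genes.

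**Figure D5:**
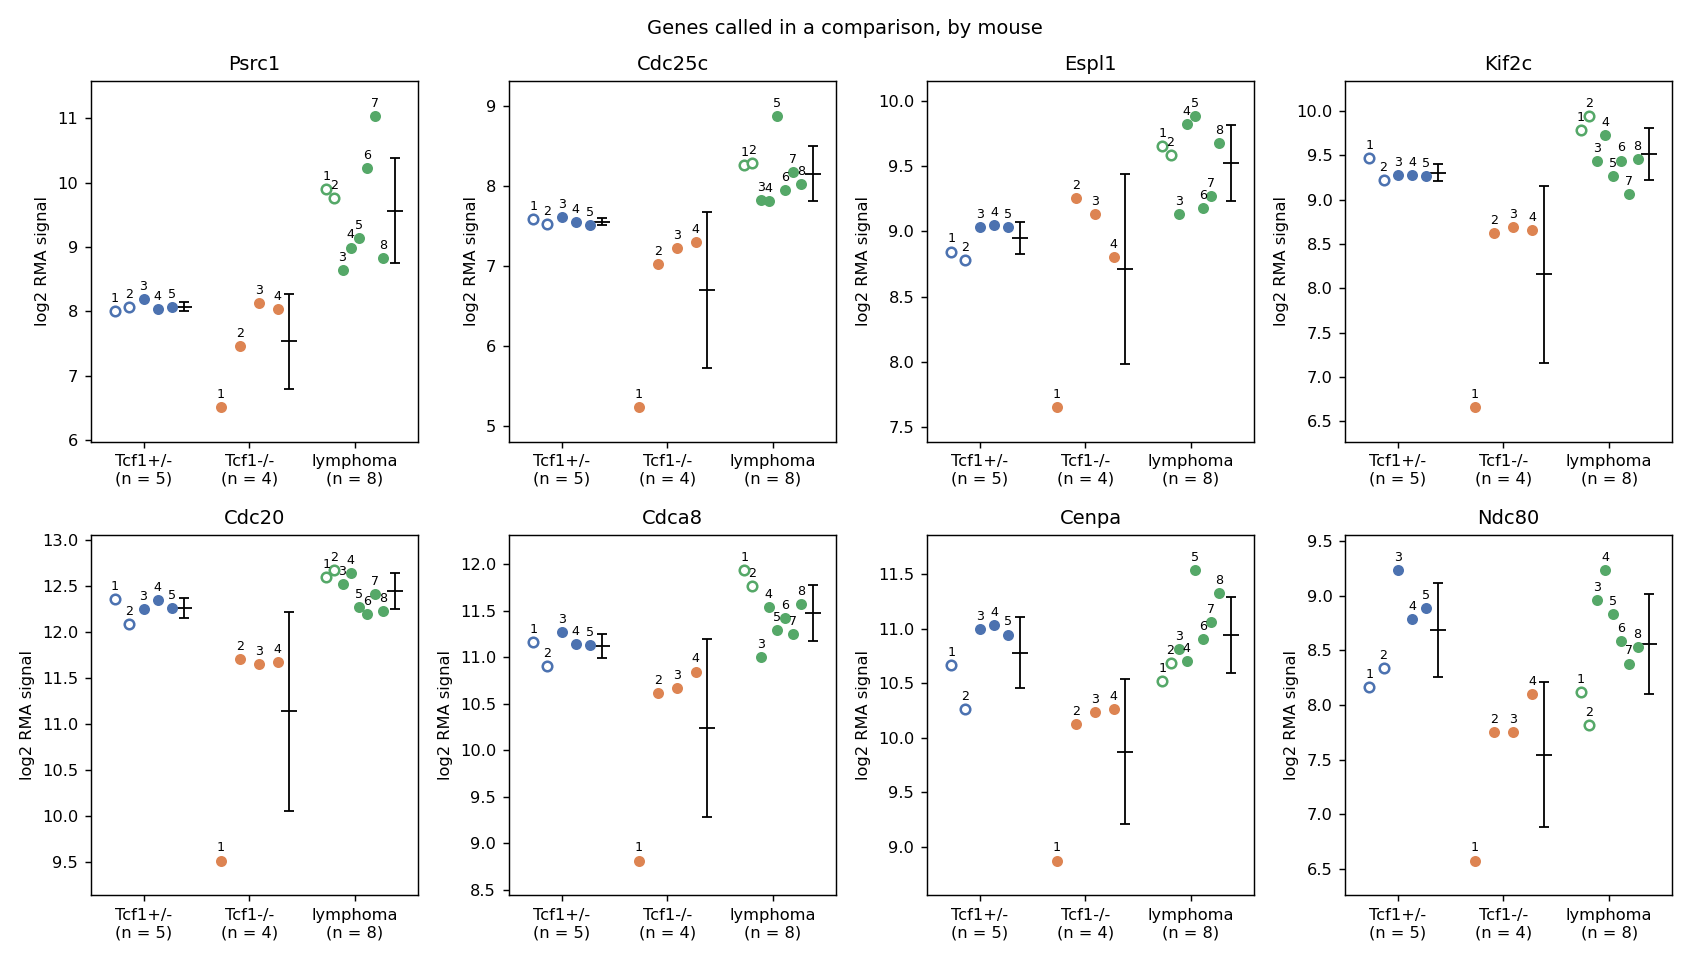
Log2 signal per mouse of Psrc1, Cdc25c, Espl1, Kif2c, Cdc20, Cdca8, Cenpa and Ndc80 in Tcf1+/-, Tcf1-/- and lymphoma, with open circles for the 4 arrays that stand apart and bars for the mean ± SD. Psrc1, Cdc25c and Espl1 are higher in all 8 lymphomas than in all 5 Tcf1+/- mice, whereas the other 5 genes overlap between these groups.

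These calls also varied with the scaling and the arrays. With the interquartile-range scaling Psrc1 rose (5.98% of all genes did) and Ube2c fell (4.14%), and with quantile normalization Psrc1 rose (7.28%) and Prc1 and Ube2c fell (5.36%). Without the 4 arrays that stand apart, no member rose (5.43% of all genes did) and Kif11 and Ube2c fell (6.0% of all genes did). Psrc1 was then 1.38 higher (limma adjusted p = 0.10), and at an unadjusted p under 0.05, 3 members were higher and 8 lower. With array set as a block, 3 rose (14.9% of all genes did), and Ccnb2, Kif18a, Mad2l1, Nuf2, Nusap1, Prc1 and Ube2c fell (12.4%). With the mouse number as a block over numbers 1 to 5, a pairing the labels do not give, Espl1 and Psrc1 rose (6.43% of all genes did). Kif18a and Ube2c fell in that fit (6.54%). Psrc1 passed whichever single mouse was left out. It was the only member to pass without Tcf1+/- replicate 1, 2, 3 or 5, Cdc25c was lost also without Tcf1+/- replicate 4 or lymphoma replicate 1 or 7, and Espl1 without lymphoma replicate 8. Without lymphoma replicate 4, Hmmr and Prc1 fell beside the 3 that rose (4.68% of all genes fell), and without replicate 3 Ube2c fell (4.05%). Within the 4 arrays that stand apart alone, Cdc25c, Cdca8, Espl1 and Psrc1 rose (11.7% of all genes did). Anln, Ccnb2, Kif18a, Kif20a, Mad2l1, Nuf2, Prc1, Tpx2 and Ube2c fell there (9.17%).

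Ube2c, the ubiquitin-conjugating enzyme that works with the anaphase-promoting complex, fell in 7 of the 8 fits just named in which any member fell, the exception being the fit without lymphoma replicate 4. It measured 11.63, 11.78, 12.34, 12.23 and 12.21 in Tcf1+/- and 10.66, 11.35 and 12.15 in the lymphomas, a difference over all arrays of -0.64 (limma adjusted p = 0.078). Prc1 was 9.74, 9.50, 10.19, 9.94 and 10.02 in Tcf1+/- and 8.45, 9.22 and 10.19 in the lymphomas, -0.67 (0.12). Both ranges overlap.

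In the limma fit used first for each comparison, the genes most used as measures of division did not pass, apart from Cdc20. Without Tcf1-/- replicate 1 and the 4 arrays that stand apart, Plk1, Aurkb and Birc5 fell in Tcf1-/- (15.2% of all genes did). In lymphoma against Tcf1-/-, Birc5 rose by the adjusted exact Mann-Whitney test, with all 17 arrays in 1 fit and with the interquartile-range scaling. Of all genes 10.7%, 19.2% and 16.4% passed there in either direction. Mki67 was 12.24, 11.82, 11.65, 12.29 and 12.26 in Tcf1+/-, 10.46, 12.16, 12.31 and 11.55 in Tcf1-/-, and 11.44, 11.88 and 12.62 in the lymphomas. Top2a, the topoisomerase that untangles chromosomes, was 11.86, 11.79, 12.64, 12.65 and 12.59, then 10.14, 12.42, 12.27 and 12.24, then 11.46, 11.95 and 12.95. All 3 groups overlap in both genes once Tcf1-/- replicate 1 is set aside.

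Among the kinases, Cdk1 measured 10.77, 10.65, 11.48, 11.22 and 11.20 in Tcf1+/-, 8.78, 11.05, 11.05 and 11.29 in Tcf1-/-, and 10.17, 10.94 and 11.78 in the lymphomas. Plk1 was 9.18, 9.24, 9.50, 9.43 and 9.49, then 7.14, 9.06, 9.06 and 8.95, then 8.66, 9.37 and 9.57. Aurkb, the kinase of the passenger complex, was 8.55, 8.42, 9.51, 9.67 and 9.63, then 7.12, 9.16, 8.93 and 9.25, then 8.50, 9.43 and 9.91. In Plk1 the Tcf1-/- mice lay below all Tcf1+/- mice, and in Cdk1 and Aurkb they did not.

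Bub1, a checkpoint kinase, was 9.05, 8.90, 10.17, 10.10 and 10.13 in Tcf1+/-, 7.67, 10.09, 9.89 and 10.11 in Tcf1-/-, and 8.96, 9.83 and 10.63 in the lymphomas. Birc5, or survivin, was 11.55, 11.26, 11.86, 11.69 and 11.62, then 9.01, 11.31, 11.16 and 11.16, then 11.37, 11.60 and 11.94. Foxm1 was 8.16, 7.99, 7.56, 7.84 and 7.74, then 6.53, 8.11, 8.25 and 7.51, then 7.58, 7.82 and 8.86. In Bub1 the 2 lower Tcf1+/- values are the 2 arrays that stand apart, whereas in Foxm1 the same arrays are the higher ones.

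Within groups the members varied unevenly. The SD over the 5 Tcf1+/- mice had a median of 0.34, from 0.043 for Cdc25c to 1.34 for Kif18a, and over replicates 3 to 5 the median was 0.087. Among the lymphomas the median SD was 0.45, from 0.15 for Pttg1 to 1.51 for Kif20a. Over replicates 3 to 8 it was 0.35, with Psrc1 the most variable (0.95) and Ccna2 the least (0.15). In Tcf1-/- it was 1.06, and 0.18 without replicate 1.

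The lymphoma spread in Kif20a came from replicates 1 and 2, at 5.86 and 6.54 against 8.62 to 9.94 in the other 6. Kif18a, a kinesin that dampens chromosome movement, read 5.77 and 6.08 there against 8.02 to 8.90, and Anln, the anillin scaffold of the furrow, 6.64 and 6.68 against 8.21 to 10.15. Mad2l1, of the spindle checkpoint, read 9.37 and 9.79 against 10.98 to 12.01. The same genes were low on the Tcf1+/- arrays that stand apart, for Kif20a 7.76 and 8.04 against 9.45 to 9.65.

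Other genes of division were taken from lists of the same pathway. In Tcf1-/- against Tcf1+/-, none of 32 further centromere and kinetochore genes, 8 condensin subunits or 16 genes of the anaphase-promoting complex passed by limma, with 5, 1 and 4 at an unadjusted p under 0.05. Of 28 further spindle genes 1 fell (Ccnf, -1.42, limma adjusted p = 0.0099), of 37 DNA replication genes 1 fell (Ccne1, cyclin E1, -1.52, 0.0073), and of 9 DREAM and MYBL2 genes 1 fell (Lin37, -0.57). Of all genes tested, 4.7% fell and 10.1% rose there. Among 11 brakes on division, 4 fell and 1 rose: Cdkn2d (-1.54, limma adjusted p = 0.0047) and Cdkn2c (-1.02, 0.0498) were among the former, and Cdkn1a, the p21 inhibitor, was 1.25 higher (0.018). Without Tcf1-/- replicate 1 and the 4 arrays that stand apart related lists also held genes that fell: 8 of 16 genes of the anaphase-promoting complex, 7 of 32 centromere and kinetochore genes, 5 of 28 further spindle genes, 2 of 8 condensin subunits and 3 of 9 DREAM and MYBL2 genes were lower by limma, against 15.2% of all genes. The median over the centromere and kinetochore list was then -0.38 and over the anaphase-promoting complex -0.39, beside -0.43 for the members. DNA replication genes gave 2 higher and 3 lower of 37, and the brakes 1 higher and 7 lower of 11.

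In lymphoma against Tcf1-/-, 5 of 32 centromere and kinetochore genes rose by limma, with Cenpw (1.35), Cenpk (1.28) and Spc24 (1.23) the largest and a list median of 0.66. That is 15.6% of the list, against 6.34% of all genes higher. Among the further spindle genes 2 of 28 rose (7.14%), Tacc3 (1.31) and Depdc1b (1.23). In the anaphase-promoting complex 2 of 16 did (12.5%), Anapc11 (0.59) and Cdc26 (0.54). DNA replication genes gave 3 of 37 (8.11%), with Rfc4 (1.51), Ccne1 (1.48) and Prim1 (0.99) and a median of 0.55 (all genes 0.10). No condensin, DREAM or brake gene passed, with 1, 2 and 3 at an unadjusted p under 0.05. Without Tcf1-/- replicate 1 and the 4 arrays that stand apart, Cenpk was 0.77 higher (limma adjusted p = 0.060), Spc24 0.64 (0.065), Tacc3 0.69 (0.077), Depdc1b 0.66 (0.066) and Ccne1 1.22 (0.092), none of which passed, while Dlgap5 and Bora, named after their values were seen, were the 2 further spindle genes that rose. Counts there were 3 of 32 for the centromere and kinetochore list, with a median of 0.33, and 3 of 16 for the anaphase-promoting complex. Of all genes 3.8% rose in that fit. DNA replication genes gave 3 of 37, with a median of 0.13.

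In lymphoma against Tcf1+/-, 8 of 37 DNA replication genes rose by limma, led by the primase and polymerase subunits Prim2 (0.98), Prim1 (0.92) and Pold1 (0.91), with a median of 0.38 beside -0.03 for the mitotic genes. Without the 4 arrays that stand apart 4 of 37 rose (10.8%, against 5.43% of all genes), and these medians were 0.19 and -0.15. Over all arrays 8.49% of all genes rose and 4.21% fell, and 21.6% of the DNA replication genes rose. Of the centromere and kinetochore genes 3 of 32 rose (Pmf1 1.05, Cenpw 1.01 and Cenpo 0.51, median 0.24), and Anapc11 rose by 0.78. Cks1b was 0.52 higher and Ccnf fell by 0.78 among the further spindle genes. Of the brakes 3 of 11 fell, with Btg2 at -1.80, Cdkn2d at -1.64 and Cdkn1b at -0.97. No condensin or DREAM gene passed, with 0 and 1 at an unadjusted p under 0.05. Without the 4 arrays that stand apart Cenpo (0.30, limma adjusted p = 0.14), Cks1b (0.40, 0.0504) and Btg2 (-1.93, 0.065) did not pass, 1 DREAM gene fell, and the centromere and kinetochore list had 2 of 32 higher. In the same comparison 8 of 14 thymocyte, 3 of 5 NK cell, 4 of 8 dendritic cell and 2 of 12 thymic epithelial markers fell. Of the macrophage markers 0 of 12 passed (0 also at an unadjusted p under 0.05). B cell and fibroblast markers each gave 1 higher and 1 lower of 9. The fibroblast marker that fell was Thy1 (-0.65), which is also counted among the thymocyte markers. Without the 4 arrays 5 thymocyte, 3 NK cell, 3 dendritic cell, 2 epithelial, 1 macrophage and 1 B cell marker fell, and 1 fibroblast marker rose.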

How the data were processed

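Total RNA, labelled as homogenized thymus and in the study's methods as homogenized thymocytes, was hybridised to Affymetrix mouse arrays, 1 array per mouse. The deposited values are log2 signals that the authors normalized by RMA, a method that removes background, makes the arrays' distributions equal and combines the probes aimed at one transcript into 1 value. The deposited values were still not equal in distribution, with interquartile ranges of 2.93 to 3.06 on 4 arrays and 3.49 to 3.75 on the other 13. The RMA version is not given in the sources used here. Of 45101 probe sets, 64 controls were left out, 34958 had a single gene symbol in the platform annotation, 932 several and 9147 none. For each of 18194 genes, the single-symbol probe set brightest on average was kept. A gene was tested where its signal passed an array's 40th percentile on 4 or more arrays, which left 13756.

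Groups were compared in pairs with limma 3.58.1 in R 4.3.3, with Benjamini-Hochberg adjustment over all genes tested and a threshold of 0.05, and the model was tested on simulated data. Means per mouse and promoter matches were computed in Python 3.11.15 (numpy 2.4.6, scipy 1.17.1) and carry no test. The members, gene lists and cell type marker lists were chosen with earlier results of these data known. Any member could be named. Mki67, Top2a, Cdk1, Plk1, Aurkb, Bub1, Cdc20, Birc5 and Foxm1 were given in every sample, as were up to 6 of the called members with the largest difference per comparison, and up to 3 called genes per other list. Pttg1, Ube2c and Prc1, and the members low in 2 lymphomas, were added after their values were seen. The labels number the mice within each group. They do not say whether a number marks a pair. Deviations from the group mean of same-numbered lymphoma and Tcf1+/- mice correlated at 0.62, 0.62, 0.40, 0.25 and 0.25. Lymphoma replicates 1 and 3 correlated most with the Tcf1+/- mouse of their own number, and replicates 2, 4 and 5 did not. Numbers 1 and 2 are the arrays that stand apart in both groups. The numbers were fitted as a block only as an alternative, since these values do not settle whether they are pairs. Alternatives were other filters, scalings, probe set rules and tests, array set or Y-linked signal in the model, and leaving out each mouse. Leaving out Tcf1-/- replicate 1 with the 4 arrays that stand apart, and the 4 arrays alone, was added after the data were seen. The unblocked fit over same-numbered mice was also added then. The number of arrays limits the precision. The targeted gene could not be checked.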

Additional observations from a re-analysis of the deposited data

Results flagged for a closer look

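In groups of 4 to 10 mice, the lowest or highest mouse was marked where its gap to the next exceeded the critical value of Dixon's test, which chance exceeds in about 1 of 20 groups. Among the genes given in every sample, Tcf1-/- replicate 1 was marked as the lowest Tcf1-/- mouse for Cdk1 (8.783), Cdc25c (5.24), Plk1 (7.144), Aurkb (7.116), Birc5 (9.008), Cdca8 (8.814), Bub1 (7.668), Cdc20 (9.519), Cenpa (8.872), Kif2c (6.662) and Top2a (10.14), and for the mean of the 46 genes (7.824). Lymphoma replicate 5 was marked as the highest lymphoma for Cdc25c (8.873), and Tcf1+/- replicate 1 as the highest Tcf1+/- mouse for Kif2c (9.466). Over all 46 members, 22 marked Tcf1-/- replicate 1 as lowest. Tcf1+/- replicate 1 and lymphoma replicates 2 and 5 were each marked as highest for 1 member, and lymphoma replicate 2 as lowest for 1.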

How the results depend on the processing

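For Tcf1-/- against Tcf1+/- (1 member called, 2037 of all genes), the count of members was 5 with all 17 arrays in 1 fit, 4 with array set as a block (3418 of all genes), 3 with interquartile-range scaling or quantile normalization, 2 without the 4 arrays that stand apart, and 22 without these and Tcf1-/- replicate 1 (3956 of all genes). The exact Mann-Whitney test gave 0 after adjustment, for all genes also, and 14 without. Over the numbered mice it was 0 without the replicate block (6 at an unadjusted p under 0.05) and 1 with it (1257 of all genes). For lymphoma against Tcf1-/- (8 members, 2020 of all genes) it was 0 with the Y-linked covariate (359 of all genes), and over the numbered mice 0 with the replicate block (584 of all genes, 11 members at an unadjusted p under 0.05) and 1 without it (951). All genes called there numbered 1014 without Tcf1-/- replicate 1, 1271 without replicate 2 and 1328 without replicate 1 and the 4 arrays that stand apart. Same-numbered mice did not deviate together in either of these comparisons (correlations from -0.29 to 0.12), and the labels state no pairs in any comparison. For lymphoma against Tcf1+/- (3 members, 1747 of all genes) it was 1 with the Y-linked covariate (971) or all 17 arrays in 1 fit (1947). It was also 1 with a difference of at least 1 required (853), and over the numbered mice without the replicate block (686). With the replicate block it was 4 (1784). It was 10 with array set as a block (3752), 13 in the 4 arrays that stand apart alone (2871) and 7 by the unadjusted Mann-Whitney test (3426). Leaving out 1 mouse at a time gave 0 to 3 members in the first comparison, 5 to 8 in the second and 1 to 5 in the third. Of all genes, 10.1% to 14.8%, 7.37% to 16.0% and 8.56% to 14.2% were called in those fits. The first count was 0 without Tcf1-/- replicate 2 or 3 or Tcf1+/- replicate 3, 4 or 5, and 3 without Tcf1-/- replicate 1 or 4. The other 108 values, differences of the per-mouse means included, stayed within 1.5 times the count or 1 SD. For the means this margin is wide, since the SD in Tcf1-/- (0.98) includes replicate 1. Leaving out 1 mouse at a time gave mean differences of -0.89 to -0.20 for Tcf1-/- against Tcf1+/-. For lymphoma against Tcf1-/- they were 0.15 to 0.84. No called member reversed: 233 member results kept their call and 79 lost it. The cause was not tested.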
